A study of Homo sapiens with 5 samples.

Results

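Contacts between the centromeres of different chromosomes were read from genome-wide contact maps of RMG1 cells. For each of 17 chromosomes (1 to 12 and 16 to 20), the 5 measured bins of 1 Mb below the centromere and the 5 above it formed a centromere window of 10 bins, taken by position on hg19 among the bins that passed a filter on low totals. The 170 bins give 1 window pair for every pair of these chromosomes, with 100 bin pairs in each and 13600 in all, which are 0.374% of the 3638266 trans bin pairs measured (a trans pair joins 2 different chromosomes). The 2 sides of a window flank the centromere and lay 3 to 7 Mb apart on most chromosomes, but 24 Mb on chromosome 1, 32 Mb on chromosome 9 and 11 Mb on chromosome 16, which carry long heterochromatin blocks.

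The measure was in situ Hi-C, in which DNA ends that lie close together in fixed nuclei are ligated and sequenced. RMG1 is an established line of human ovarian clear cell carcinoma. There were 5 libraries: 1 control (a control hairpin RNA, with ARID1A and CAPH2 both wild type), 2 of ARID1A knockout cells (ARID1A KO, made by CRISPR, CAPH2 wild type) and 2 of CAPH2 knockdown cells (CAPH2 KD, made with a hairpin RNA, ARID1A wild type). The series asks how ARID1A and condensin II shape chromosome organisation. Control and KD cells both carry a hairpin and KO cells do not, so for KO against control the gene and the method cannot be told apart. Whether the libraries of a group came from separate cultures or clones is not given in the sources used here, so the tests measure only the spread between these libraries.

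A centromere is the site on which the kinetochore is built, and in interphase nuclei the centromeres of several chromosomes often lie together, near the nuclear envelope or the nucleoli. CAPH2 is the kleisin of condensin II, the complex that shortens chromosomes along their length, and in several organisms loss of condensin II is known to bring centromeres together. ARID1A belongs to the SWI/SNF chromatin remodeller, where it helps to hold the complex on DNA.

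Contact signal was divided by the mean over all bin pairs of the same 2 chromosomes, so that 1 (or 0 on the log2 scale) is the level of an average bin pair. Before that, the deposited signal had been balanced, which sets every bin's total to the same value. Trans depth, as contacts recovered from the balanced values, was 11.1 M contacts (megacontacts) in the control, 7.04 M and 7.08 M in the KO libraries and 13.7 M and 20.9 M in the KD libraries. A centromere window pair held from 78 to 1464 contacts in a library. The median in the control was 298, which gives a counting error of 0.08 in log2. That error leaves out all variation between cultures.

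Centromere windows of different chromosomes met more often than average bin pairs in every library, by balanced signal. The mean log2 observed over expected over all of these window pairs was 0.41 in the control, which is 1.32-fold. It was 0.26 and 0.57 in ARID1A KO replicates 1 and 2, and 0.62 and 0.61 in CAPH2 KD replicates 1 and 2. The KO libraries thus lay on either side of the control, and both KD libraries lay above all others. Group means were 0.42 ± 0.22 (SD, n = 2) for KO and 0.62 ± 0.01 (SD, n = 2) for KD. The 2 KO libraries differed this much at nearly the same depth.

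**Figure D1:**
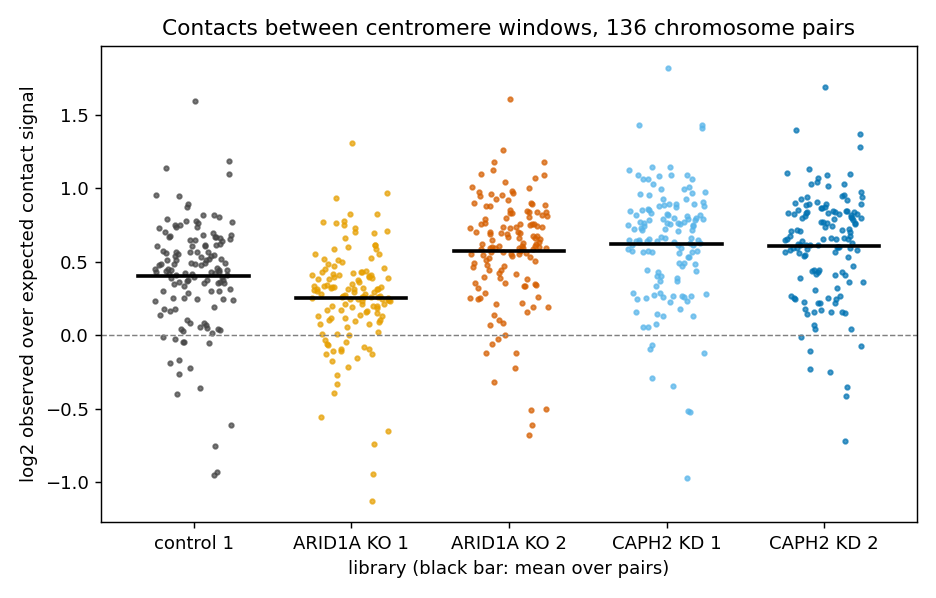
Log2 observed over expected contact signal of every pair of centromere windows (points) in each of the 5 libraries, with the mean as a black bar. The means were 0.41 (control), 0.26 and 0.57 (ARID1A KO) and 0.62 and 0.61 (CAPH2 KD), and the dashed line at 0 is the average of all bin pairs of the same 2 chromosomes.

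Most pairs, rather than a few, were above the average. In the control 121 pairs were above 0 (89.0% of all pairs), in the KO libraries 114 (83.8%) and 126 (92.6%), and in each KD library 128 (94.1%). In all 5 libraries at once, 109 pairs were above 0 (80.1%), whereas 26.4% of the 31713 pairs of windows of the whole genome were. In single bin pairs too, KO replicate 1 was the lowest and the KD libraries were the highest. In the control 56.9% of the 13600 centromere bin pairs exceeded their expectation, in KO 51.7% and 60.1%, and in KD 66.3% and 68.7%. Over all trans bin pairs between the same chromosomes the share was 41.8% to 43.1% in every library. Depth differed as well: 11.5% of centromere bin pairs had no contact in the control, 24.9% and 20.1% in KO, and 6.55% and 2.65% in KD. The part of depth in the shares of centromere bin pairs was not tested.

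The height of the level depended on balancing. Before balancing, the centromere-side bins held fewer contacts than other bins: their median total in the control was 0.870 of the genome's median bin, and that of the bins next to the centromere was 0.463. When recovered contacts were used instead, the mean level was -0.06 in the control, -0.23 and 0.07 in KO, and 0.14 and 0.12 in KD. The order of the 5 libraries stayed and the KD mean was 0.19 above the control, but the control and KO replicate 1 came out below the average bin pair. Statements on levels above expectation below therefore hold for balanced signal only.

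By balanced signal, contact declined with distance from the centromere. Totals before balancing went the other way. Their median in the control rose from 0.463 of the genome's median bin at rank 1 to 0.994 at rank 5. Whether the decline holds for recovered contacts was not tested. Bins were ranked outward on each arm, and their observed over expected signal with the centromere windows of the other chromosomes was averaged over the arms. All 34 arms reach rank 14, and shorter arms drop out from rank 15 on, which leaves 30 at rank 30. At rank 1 it was 1.67 in the control, 1.38 and 1.86 in KO, and 1.90 and 1.89 in KD. At rank 5, the last bin of the windows, it was 1.17 in the control, 1.12 and 1.28 in KO, and 1.38 and 1.36 in KD. Outside the windows the decline went on: at rank 10 the control was at 1.07, KO at 1.04 and 1.13, and KD at 1.20 and 1.18. The signal first went below 1 at rank 22 in the control, at ranks 15 and 30 in KO and at rank 29 in both KD libraries. In the control and KO replicate 1 it rose above 1 again, and rank 26 was the last above 1 in both. The last was rank 29 in KO replicate 2 and rank 28 in both KD libraries. These ranks lie where arms drop out, so they do not measure how far the contact reaches. KD and KO replicate 2 stood above the control, and KO replicate 1 below it, at ranks 1, 5 and 10.

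**Figure D2:**
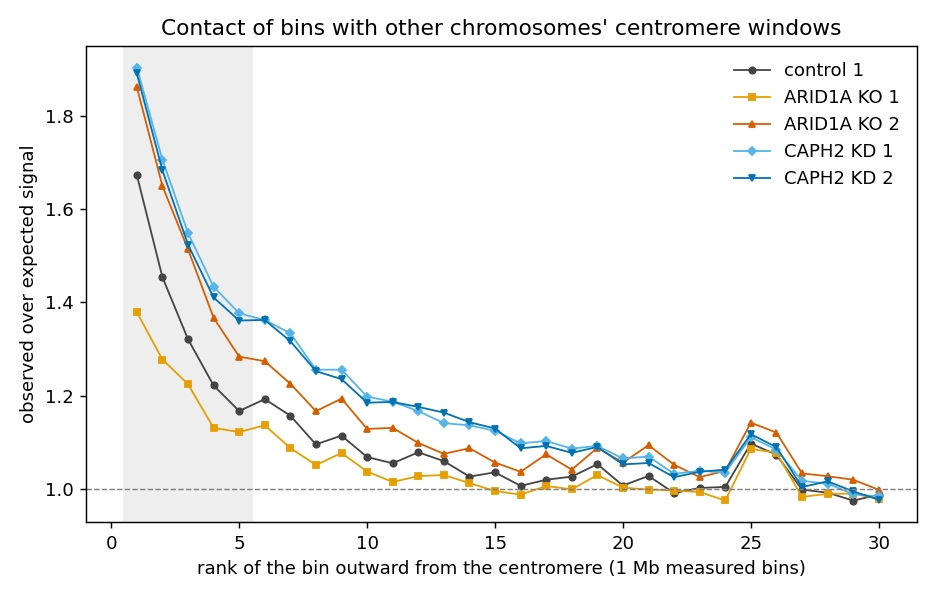
Mean observed over expected signal (vertical axis, linear) of bins at each rank outward from the centromere (horizontal axis, measured bins of 1 Mb) with the centromere windows of other chromosomes, 1 line per library. The grey band marks the 5 bins a side that form the windows; the curves start between 1.38 and 1.90 and approach 1.

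Bins next to the centromere carried the largest values by balanced signal. Of the 170 bins, 140 were above 1 in all 5 libraries and 0 were below 1 in all 5. Of the 34 bins of rank 1, 32 were above 1 in all 5, against 25 of the 34 of rank 5. The highest bin was chr6:57000001-58000000, next to the centromere on the short arm, with 2.99 in the control, 2.31 and 2.85 in KO, and 3.28 and 3.12 in KD. Its contacts with chromosome 3 are described with the pairs. Next came chr2:95000001-96000000, with 2.26 in the control, 1.52 and 2.52 in KO, and 2.56 and 2.66 in KD. The lowest was chr19:22000001-23000000, with 1.00 in the control, 0.771 and 0.859 in KO, and 1.03 and 1.02 in KD. Its total before balancing was 0.273 of the median bin, close to the limit of 0.25 below which bins were left out.

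Both arms took part. Short-arm sides with short-arm sides averaged 0.42 in log2 in the control, 0.27 and 0.57 in KO, and 0.64 and 0.63 in KD. Long-arm sides with long-arm sides averaged 0.30 in the control, 0.18 and 0.50 in KO, and 0.55 and 0.53 in KD. Mixed sides lay between them, at 0.40 in the control, 0.22 and 0.55 in KO, and 0.60 and 0.59 in KD. The short-arm side was above the long-arm side in all 5 libraries on 7 of 17 chromosomes, and the reverse held on 2. In the control the widest gap was on chromosome 6, where the short-arm side had 0.73 and the long-arm side 0.31. That short-arm side holds chr6:57000001-58000000, whose strong bin pairs with chromosome 3 are described with the pairs. The gap without them was not measured. The gap was widest on chromosome 6 in KO replicate 1 too, and on chromosome 1 in KO replicate 2 and both KD libraries. On chromosome 1, KD replicate 1 had 0.82 on the short-arm side and 0.35 on the long-arm side.

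Each chromosome was then summarised by the mean of its 16 pairs. Chromosome 2 stood highest, with 0.67 in the control, 0.48 and 0.85 in KO, and 0.95 and 0.92 in KD. Chromosome 18 followed, with 0.60 in the control, 0.51 and 0.82 in KO, and 0.77 in both KD libraries. Chromosome 3 stood lowest, with 0.08 in the control, -0.11 and 0.27 in KO, and 0.35 and 0.36 in KD. It was the chromosome with the fewest pairs above 0, which were 10 of 16 in the control. Its mean includes the pair with chromosome 6, at 1.59 in the control, which rests on strong bin pairs described with the pairs. The chromosome means are given for 1 expectation only. Several pairs of chromosomes 2 and 3 move with the expectation, as described with the pairs.

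By the mean of the 5 libraries the order between these ends was chromosomes 7 (0.63), 8 (0.63), 5 (0.62), 11 (0.59), 6 (0.55), 16 (0.49), 10 (0.48), 1 (0.48), 4 (0.48), 20 (0.42), 12 (0.42), 17 (0.35), 9 (0.31) and 19 (0.28). Most of this order is not resolved. Of the 16 neighbours in it, 2 kept their order in all 5 libraries, which were 12 above 17 and 19 above 3. Chromosomes 2 and 18 changed places in KO replicate 1. A chromosome's mean shares each pair with another chromosome's mean, so the 17 values are not independent.

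**Figure D3:**
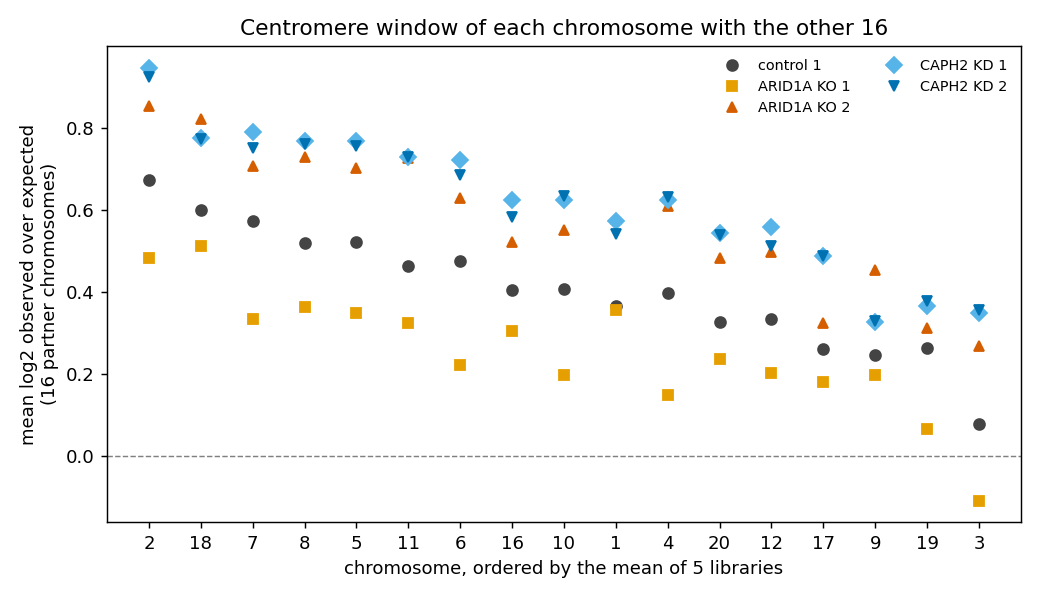
Mean log2 observed over expected signal of each chromosome's centromere window with those of the other 16 (vertical axis), with 1 symbol per library and chromosomes ordered by the mean of the 5 libraries. Both CAPH2 KD symbols lie above the control on all 17 chromosomes, and ARID1A KO 1 lies below and ARID1A KO 2 above the control on all 17.

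Among single pairs, chromosomes 3 and 6 stood highest, with 1.59 in log2 in the control, 1.31 and 1.61 in KO, and 1.82 and 1.69 in KD. This pair rests on a block of strong bin pairs between 1 bin of chromosome 6, chr6:57000001-58000000, and bins of chromosome 3 on both sides of its centromere. The strongest partner was chr3:89000001-90000000, at 44.5 times the expectation in the control (108 contacts), 49.4 and 35.1 times in KO (50 and 37 contacts), and 39.9 and 32.4 times in KD (127 and 150 contacts). It was present in every library at a similar strength. Without bin pairs above 10 times the mean, the mean of the 5 libraries for this pair went from 1.60 to 0.75. Whether the 2 chromosomes are joined there in RMG1 was not tested.

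The next highest pairs were 2 with 18, 2 with 20, 2 with 16, 17 with 18 and 2 with 8. Chromosomes 2 and 18 had 1.10 in the control, 0.97 and 1.18 in KO, and 1.41 and 1.37 in KD. Chromosomes 2 and 20 had 1.14 in the control, 0.77 and 1.09 in KO, and 1.43 and 1.40 in KD. Chromosomes 2 and 16 had 1.19 in the control, 0.71 and 1.09 in KO, and 1.43 and 1.28 in KD. In these 3 pairs both KD libraries were above the control and KO replicate 1 was below it. Chromosomes 17 and 18 had 0.95 in the control, 0.94 and 1.18 in KO, and 1.14 and 1.13 in KD. Chromosomes 2 and 8 had 0.89 in the control, 0.66 and 1.26 in KO, and 0.99 and 1.07 in KD. Chromosome 2 is thus in 4 of the 6 highest pairs. Without bin pairs above 10 times the mean these 5 pairs averaged 0.98 to 1.17 over the 5 libraries. Their height depended on the other settings: with the expectation taken from the totals of the 2 windows they averaged 0.36 (2 with 20) to 0.71 (2 with 8), and with recovered contacts 0.06 (17 with 18) to 0.84 (2 with 18).

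The 6 lowest pairs were all below 0 in the mean of the 5 libraries. They were 3 with 9 (-0.89), 3 with 19 (-0.63), 2 with 3 (-0.63), 3 with 17 (-0.39), 5 with 9 (-0.27) and 9 with 19 (-0.20), so chromosome 3 was in 4 of them. The lowest, 3 with 9, had -0.95 in the control, -1.12 and -0.67 in KO, and -0.97 and -0.72 in KD. In several of them very strong bin pairs elsewhere on the chromosomes raise the expectation. The strongest bin pair of 3 with 19 reached 262 times the mean in the control and that of 3 with 9 reached 120 times, both far from the centromeres, and bin pairs above 10 times the mean held 18.3% and 8.51% of the signal of the 2 pairs. Without such bin pairs the means were -0.37 for 3 with 19 and -0.73 for 3 with 9. When the expectation was taken from the totals of the 2 windows within the chromosome pair, 3 with 9 had 0.31, 3 with 19 had 0.44 and 3 with 17 had 0.46. The sign of these low pairs therefore depends on the expectation.

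In all 5 libraries, 6 pairs were below 0. They were 5 of the pairs just named, without 9 with 19, and 17 with 19, which had -0.17 in the control, -0.27 and -0.32 in KO, and -0.07 and -0.11 in KD.

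**Figure D4:**
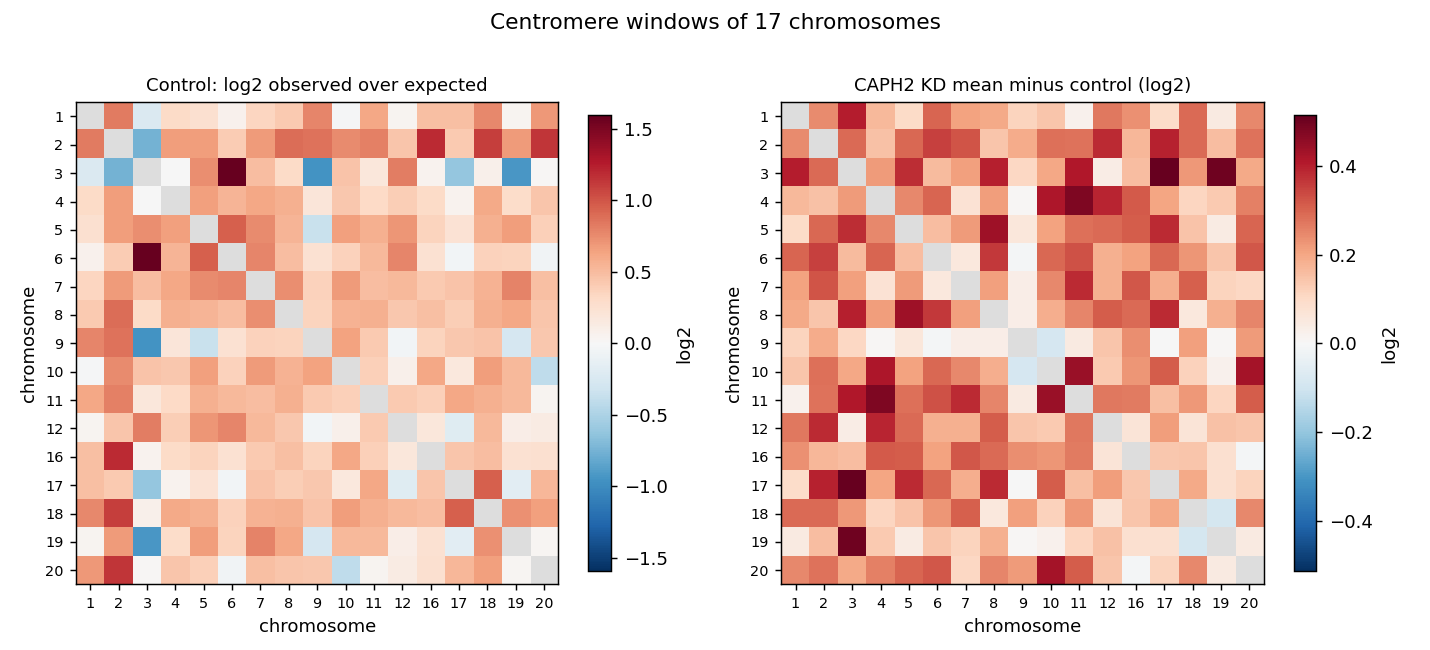
Maps of the 17 by 17 chromosomes (both axes; the grey diagonal is not a trans pair). The left map gives log2 observed over expected signal between centromere windows in the control, where 3 with 6 is the highest at 1.59, and the right map gives the CAPH2 KD mean minus the control in log2, which runs from -0.09 to 0.51.

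For CAPH2 KD against control, centromere contacts were higher in the KD libraries on all 17 chromosomes. The mean level was 0.21 above the control in log2, or 1.16-fold. Both KD libraries were above the control in 124 pairs (91.2%) and both were below it in 2 (1.47%). Over all 31713 window pairs of the genome, both KD libraries were above the control in 37.6% and below it in 39.0%. The median difference was 0.21 over the centromere pairs and -0.004 over all window pairs. The single differences ran from -0.09 (18 with 19) to 0.51 (3 with 17). The 2 KD libraries differed from each other by a median of 0.07 in a pair. KD replicate 1 alone was above the control in 129 pairs and KD replicate 2 alone in 129, against 49.1% and 49.5% of all window pairs.

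With 1 control library, the test across all window pairs had little power. Limma called 0 of the centromere pairs and 0 of 31713 window pairs in either direction (0.0% called) at an adjusted p of 0.05. An unadjusted p under 0.05 was found for 11 centromere pairs (8.09%). Such unadjusted p were not counted over all window pairs or windows, here or below, so these counts cannot show an excess at centromeres. In simulated data with 31713 window pairs limma called 0 of 50 pairs with a true 2-fold change for KD against control. It called 20 of 50 with a true 3-fold change, and the differences here are far smaller. The exact permutation test of the mean level over libraries gave p = 0.333 (two-sided), the smallest value that 2 against 1 libraries allow. The KD libraries also held more trans contacts for their bins in general. The median log2 ratio of trans to cis signal was -0.59 in the control and -0.43 in both KD libraries for bins outside the windows, and -0.36 in the control and -0.16 in both KD libraries for centromere-side bins. The part of this shift in the centromere levels was not tested.

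The 3 pairs with the smallest p in this comparison all held chromosome 3. Chromosomes 3 and 17 had -0.61 in the control, -0.65 and -0.50 in KO, and -0.12 and -0.07 in KD. Both KD libraries lay above the other 3, with a KD minus control difference of 0.51 ± 0.12 (limma SE), unadjusted p = 0.0043 and adjusted p = 1.00. Chromosomes 3 and 19 had -0.93 in the control, -0.74 and -0.61 in KO, and -0.52 and -0.35 in KD, a difference of 0.50 ± 0.13 (SE). Chromosomes 1 and 3 had -0.23 in the control, 0.06 and 0.01 in KO, and 0.13 and 0.22 in KD, a difference of 0.40 ± 0.11 (SE). Both KO libraries were also above the control in the last 2 of these. The 2 pairs in which both KD libraries were below the control, singled out after their values were seen, were 18 with 19 (0.73 in the control, 0.62 and 0.67 in KD) and 9 with 10 (0.64 in the control, 0.49 and 0.63 in KD). In 9 with 10, 1 bin pair, chr9:74000001-75000000 with chr10:34000001-35000000, was at 17.7 times the expectation in the control and 12.7 times in both KD libraries.

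By chromosome, the KD libraries were above the control on 17 of 17 chromosomes, whereas 41.7% of the 259 windows of the genome had both KD libraries above the control in their contact with centromere windows, and 51.7% had both below it. The rise in KD was not confined to the centromere windows. The first windows beyond them on the arms (33 windows) had a median of 0.08 in the control and 0.25 in both KD libraries. In KO this median was 0.03 and 0.14. The second windows outward (31) had 0.02 in the control and 0.07 and 0.06 in KD. Among the centromere windows, the KD minus control difference was largest on chromosome 3 (0.28 ± 0.17, limma SE) and smallest on chromosome 9 (0.08 ± 0.12) and chromosome 19 (0.11 ± 0.12). On chromosome 17 it was 0.23 ± 0.08, with the smallest unadjusted p, 0.040, and an adjusted p of 0.457. Limma called 0 of the 17 windows (0.0% of 259 higher, 0.0% lower), and 1 had an unadjusted p under 0.05. Leaving out KO replicate 1, or KO replicate 2, turned this into 17 of 17 windows called higher in KD. In both of those fits 32.4% of all 259 windows were called higher and 34.0% lower. Only the KD libraries then supply a spread: the SD within a group over the 17 windows was 0.02 in KD and 0.23 in KO. The call for these windows thus rests on which libraries supply the spread.

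For ARID1A KO against control, the KO libraries went opposite ways. KO replicate 1 was below the control in 112 pairs (82.4%), against 47.7% of all window pairs, with a median difference of -0.14. KO replicate 2 was above it in 117 (86.0%), against 50.8% of all window pairs, with a median difference of 0.18. In 95 pairs the control lay above KO replicate 1 and below KO replicate 2. Both KO libraries were above the control in 22 pairs (31.5% of all window pairs) and below it in 17 (28.3% of all window pairs). The mean level differed from the control by 0.01, with p = 1.00 in the exact permutation test over libraries (two-sided), where 0.333 is the smallest value possible. On all 17 chromosomes KO replicate 1 was below the control, as were 47.9% of all 259 windows in their contact with centromere windows, and KO replicate 2 was above it, as were 63.7%. The log2 ratio of trans to cis signal of the centromere-side bins moved the same way, with a median of -0.41 in KO replicate 1 and -0.17 in KO replicate 2, against -0.36 in the control. For bins outside the windows it was -0.62 and -0.51, against -0.59.

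Limma called 0 pairs for KO against control (0.0% of all window pairs higher, 0.0% lower), with 6 at an unadjusted p under 0.05, and 0 of 17 windows, with 0 at an unadjusted p under 0.05. The lowest adjusted p was 0.846 for pairs and 0.993 for windows. Without KO replicate 1, 13 pairs (9.56%) were called, all higher in KO, in a fit that called 2.29% of all window pairs higher and 2.77% lower. In the same setting 15 of 17 windows were called, all higher in KO, against 31.7% of all 259 windows called higher and 13.1% lower. Without KO replicate 2, 22 pairs (16.2%) were called lower in KO and 2 higher, against 4.65% of all window pairs called lower and 5.58% higher. Here 15 of 17 windows were called lower and 0 higher, against 19.7% of all windows called lower and 75 of the 259 higher. A single KO library thus decides the direction, and these data give no direction for the group.

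In the 3 pairs with the smallest p, both KO libraries lay on the same side of the control. Chromosomes 1 and 10 had -0.02 in the control, 0.33 and 0.60 in KO, and 0.06 and 0.18 in KD, a KO minus control difference of 0.49 ± 0.15 (limma SE) with unadjusted p = 0.014 and adjusted p = 0.846. With the expectation from window totals this difference was -0.47. Chromosomes 9 and 12 had -0.05 in the control, 0.26 and 0.42 in KO, and 0.15 and 0.04 in KD, a difference of 0.39 ± 0.13 (SE). Chromosomes 10 and 18 lay the other way, with 0.66 in the control, 0.26 and 0.35 in KO, and 0.74 and 0.82 in KD, a difference of -0.36 ± 0.11 (SE). None of these 3 passed the adjusted threshold.

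ARID1A KO against CAPH2 KD needs no control library, but the 2 groups differ in method and in trans depth as well as in gene. Depth was 7.04 M and 7.08 M contacts in KO and 13.7 M and 20.9 M in KD, and these differences cannot be told apart. Both KO libraries were below both KD libraries in 68 pairs (50.0%), against 22.5% of all window pairs. Both KO libraries were above both KD libraries in 4 pairs (2.94%), against 25.3% of all window pairs. These were 4 with 18, 1 with 10, 9 with 12 and 5 with 9, singled out after their values were seen. The median difference was -0.21 over the centromere pairs and 0.01 over all window pairs. The mean level was 0.20 lower in KO in log2, and the exact permutation test over libraries gave p = 0.333, the smallest value that 2 against 2 allow. Without KO replicate 1 the difference was -0.04, and without KO replicate 2 it was -0.36, so its size rests on KO replicate 1. On 14 of 17 chromosomes both KO libraries were below both KD libraries, against 30.5% of all 259 windows, and on 0 were both above, against 43.2%.

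Limma called 0 pairs (0.0% of all window pairs higher, 0.0% lower) and 0 of 17 windows (0.0% of 259 higher, 0.0% lower) for KO against KD. An unadjusted p under 0.05 was found for 31 pairs (22.8%) and 1 window, with no count over all window pairs or windows to set beside it. With recovered contacts 7 pairs (5.15%) were called lower in KO and 1 higher, no more often than all window pairs, of which 5.89% were called lower and 3.35% higher. The same setting called 3 of 17 windows, all lower, against 14.3% of all windows called lower and 13.9% higher. Without KO replicate 1, 10 pairs (7.35%) were called lower and 5 higher, close to the 6.22% and 6.80% of all window pairs. Of the 17 windows, 9 were called lower and 1 higher, against 23.2% and 37.8% of all windows. Without KO replicate 2, 97 pairs (71.3%) were called lower and 1 higher, against 11.7% and 14.0% of all window pairs. All 17 windows were then called lower, against 37.5% of all windows called lower and 46.7% higher. Chromosomes 10 and 18 had the smallest p, with a KO minus KD difference of -0.48 ± 0.09 (limma SE) and an adjusted p of 0.254. Chromosomes 3 and 17 followed with -0.48 ± 0.10 (SE). Chromosomes 6 and 19 had 0.35 in the control, -0.17 and 0.07 in KO, and 0.44 and 0.54 in KD, a difference of -0.54 ± 0.11 (SE). In this last pair the KO libraries lay below the control as well.

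Lists of chromosomes were compared by their counts and medians. Among the 10 pairs within large chromosomes (1 to 5), both KD libraries were above the control in 10, with a median difference of 0.24. Among the 25 pairs of a large with a small chromosome (16 to 20) they were above it in 25, with a median of 0.24. Among the 10 pairs within small chromosomes they were above it in 8, with a median of 0.10, and among the 21 within chromosomes 6 to 12 in 17, with a median of 0.19. Over all centromere pairs the median was 0.21. Over all window pairs of the genome, both KD libraries were above the control in 37.6%. That share was not taken for the chromosomes of each list, and the differences between lists were not tested. Levels differed too: pairs within small gene-rich chromosomes (16, 17, 19 and 20) averaged 0.22 in the control, 0.11 and 0.22 in KO, and 0.29 and 0.30 in KD, below the means over all pairs in each library.

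Alpha satellite, the tandem repeat on which human centromeres form, falls into sequence families that differ between chromosomes. Pairs within the second family (chromosomes 2, 4, 8, 9, 18 and 20; 15 pairs) averaged 0.62 in the control, 0.46 and 0.83 in KO, and 0.81 and 0.79 in KD. Pairs within the first family (1, 3, 5, 6, 7, 10, 12, 16 and 19; 36 pairs) averaged 0.41 in the control, 0.22 and 0.52 in KO, and 0.62 and 0.60 in KD. Pairs between the 2 families (54 pairs) averaged 0.37 in the control, 0.22 and 0.57 in KO, and 0.58 and 0.57 in KD. Pairs within the second family were thus the highest of these 3 groups in every library. Chromosomes 2 and 18, the highest of all, are both in it, and the difference between families was not tested. The 3 pairs among chromosomes 1, 5 and 19, which share 1 satellite array type, averaged 0.32 in the control, 0.23 and 0.50 in KO, and 0.42 and 0.35 in KD, below the mean over all pairs in each library. The 3 pairs among chromosomes 1, 9 and 16, with long heterochromatin blocks, averaged 0.54 in the control, 0.59 and 0.66 in KO, and 0.76 and 0.72 in KD. Both KO libraries were above the control in 1 of these 3 pairs, 9 with 16 (0.36 in the control, 0.61 and 0.59 in KO). Both were below it in 1, 1 with 9 (0.78 in the control, 0.78 and 0.70 in KO). Over all window pairs both KO libraries were above the control in 31.5% and below it in 28.3%.

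The other ends of the chromosomes served for comparison. Telomere ends, the 5 outermost bins of each arm of the same chromosomes, met each other more often than centromere windows did, at 0.82 in the control, 0.85 and 0.74 in KO, and 0.84 and 0.83 in KD. Their KD minus control difference was 0.02, against 0.21 for centromere windows. Their libraries took a different order from those of the centromeres, with KO replicate 1 the highest and KO replicate 2 the lowest. Contact of centromere windows with telomere ends was near 0: 0.06 in the control, 0.04 and 0.10 in KO, and -0.02 and -0.01 in KD. Both KD libraries were thus the lowest in this class. Contact of centromere windows with the rest of the arms was below 0 in all libraries, from -0.12 in the control to -0.08 in KO replicate 2. None of the differences between classes was tested, since the classes share libraries and expectation.

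**Figure D5:**
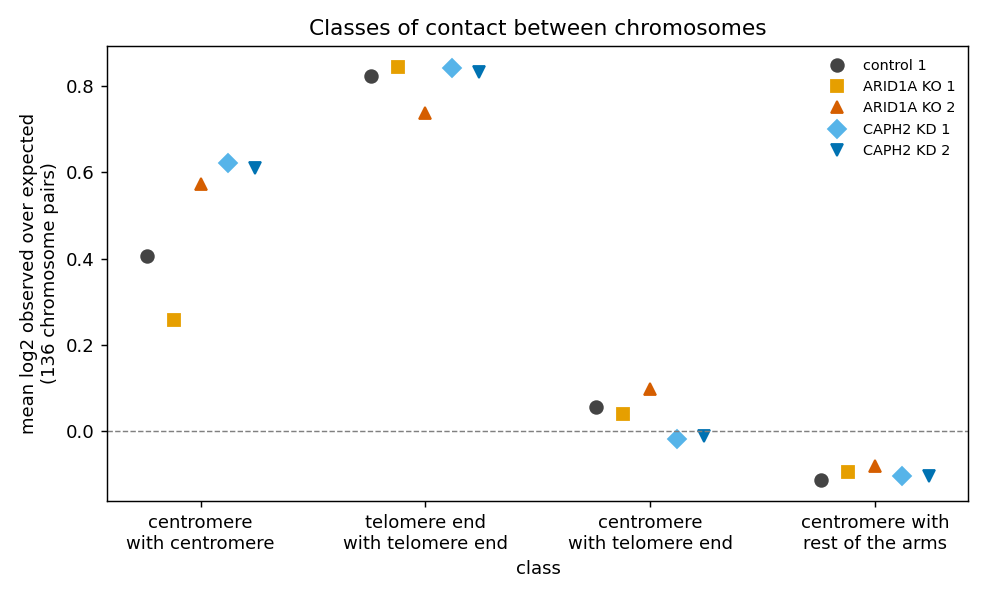
Mean log2 observed over expected signal over all pairs of the 17 chromosomes for 4 classes of contact between chromosomes, with 1 symbol per library. Centromere windows with each other spread from 0.26 to 0.62 between libraries, whereas telomere ends with each other lie between 0.74 and 0.85.

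Centromere windows were also set against nuclear compartments. Compartments (A, in general open and gene-rich, and B, closed) were read from the main pattern of contacts within each chromosome in the control. The side that went with a higher ratio of trans to cis signal was named A, without use of genes or chromatin marks. High trans signal of A with A is thus in part set by this naming. The correlation of the pattern with that ratio ran from 0.46 (chromosome 17) to 0.85 (chromosome 5). Of the 170 centromere-side bins, 68 were in A (40.0%), against 40.8% of the other bins of the same chromosomes. In the control, bin pairs of centromere windows in A with A were at 1.73 times the expectation, against 1.45 outside the windows. Those in B with B were at 1.48 against 1.02, and those in A with B at 1.17 against 0.846. Centromere windows thus stood above other bins in each class. In KD the group means inside the windows were 2.00 ± 0.01 (A with A), 1.73 ± 0.00078 (B with B) and 1.34 ± 0.02 (A with B; SD, n = 2). The KO libraries were at 1.62 and 1.99 for A with A, 1.23 and 1.60 for B with B, and 1.10 and 1.34 for A with B. The order of libraries seen for all pairs was the same in B with B. In A with A, KO replicate 2 and KD replicate 2 were level, both at 1.995. In A with B, KO replicate 2 lay between the KD libraries.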

How the data were processed

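The authors deposited 1 matrix of contact signal per library between bins of 1 Mb, with no header on how it was made. Per the submitters' processing notes, the aligner was Bowtie2 and the build hg19. The aligner's version, the read filters and the balancing program were not given in the sources used here. That the deposited signal is balanced shows in its values, since 94.9% to 96.5% of bins had a row sum within 0.1% of the median row.

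Contacts before balancing were recovered from low trans values, as a whole number times a factor per bin. They were whole within 0.05 for 98.7% to 99.5% of nonzero trans values. A factor too small by a whole divisor would give contacts that are too high. Every centromere-side bin had at least 1 bin pair of 1 contact in each library.

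Of 2811 bins measured in all libraries, 39 with under 0.25 of the control's median total were left out, leaving 2772. The genome was cut into 259 windows of 10 bins (centromere windows, then outward on each arm), which give 31713 trans window pairs. Their log2 observed over expected was tested with limma 3.58.1 (lmFit, eBayes; R 4.3.3) in 1 fit of all 5 libraries, with 2 residual degrees of freedom and Benjamini-Hochberg adjustment over all window pairs, or over all 259 windows for their mean with centromere windows. The fit lets the KO and KD libraries supply the control's spread. The signal is not counts, so no count model was used. Means per library were compared by exact permutation tests. The steps were tested on simulated data. Python 3.11.15, with pandas 2.3.3, numpy 2.4.6 and matplotlib 3.10.9, did the rest.

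Replicate numbers did not pair the libraries: over all window pairs, KO replicate 1 minus 2 and KD replicate 1 minus 2 correlated at -0.00092. The chromosomes, windows and lists were chosen with earlier results of these data known. Pairs were named by rule: the 3 with the smallest p in each comparison, since none passed, and the 6 highest and 6 lowest levels. Alternatives changed the balancing, the expectation, the filter, the window size, the chromosomes and the libraries used.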

Additional observations from a re-analysis of the deposited data

How the results depend on the processing

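The mean level of CAPH2 KD stayed above the control under each alternative, by 0.13 (replicate number as a block) to 0.24 (median over bin pairs), and KO minus KD ran from -0.25 to -0.17 (-0.36 to -0.04 when 1 library was left out). KO minus control ran from -0.07 (replicate number as a block) to 0.04 (-0.15 to 0.17 when 1 library was left out), with no stable sign. The control's own level was -0.063 with recovered contacts, 0.66 with 3 bins a side and 0.21 with 10 bins a side. With 3 bins a side, KO replicate 2 (0.850) lay between KD replicate 1 (0.852) and KD replicate 2 (0.849), so the KD libraries were not both above it. With recovered contacts, 8 pairs and 3 windows were called for KO against KD, where 5.89% of all window pairs and 14.3% of all windows were called lower and 3.35% and 13.9% higher. Leaving out 1 library gave 0 to 24 called pairs for KO against control, 0 to 98 for KO against KD and 0 for KD against control, and 0 to 15, 0 to 17 and 0 to 17 called windows. All of these calls came from leaving out a KO library, and those fits called many windows outside the centromeres too: for KO against KD without KO replicate 2, 14.0% of all window pairs were called higher and 11.7% lower. The difference of chromosomes 1 and 10, KO against control, turned to -0.47 with the expectation from window totals, and the cause was not tested. Of 150 values of named pairs under alternatives, 138 kept direction and side of the threshold and 11 passed the threshold in the same direction. With the replicate number as a block, 0 centromere pairs and 0 centromere windows were called in each comparison. Limma then gave an unadjusted p under 0.05 in 9 (KO against control), 7 (KD against control) and 48 pairs (KO against KD). These were not counted over all window pairs. Trend and robust settings in limma also called 0 centromere pairs and 0 centromere windows. Starting the far side at the boundary gave the same windows. With 1 control library, its own spread is unknown, and at the depth of the KO libraries 20.1% and 24.9% of centromere bin pairs had no contact.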

Other observations

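The 5 acrocentric chromosomes, whose short arms are not measured, had no centromere window by the rule above. Their first 10 measured bins on the long arm gave comparable levels with the centromere windows of the 17 chromosomes. On chromosome 13 the log2 observed over expected was 0.51 in the control, 0.60 and 0.64 in KO, and 0.71 and 0.72 in KD. On chromosome 14 it was 0.49, 0.43 and 0.56, and 0.71 and 0.67 in the same order of libraries. On chromosomes 15, 21 and 22 the means of the 5 libraries were 0.42, 0.55 and 0.53. Both KD libraries were above the control on all 5, as they were in 41.7% of all 259 windows. The next 10 bins outward were lower on chromosomes 13 (0.13), 14 (0.15), 15 (0.27) and 22 (0.30). On chromosome 21 they had 0.54, and the third set of 10 bins had 0.48.

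Among all 259 windows, ranked by their mean level with centromere windows, 11 of the top 17 were centromere windows, and the lowest centromere window, that of chromosome 3, was at position 54. The first windows of chromosomes 13, 14, 21 and 22, the second of chromosome 21 and a window of chromosome X took the other places.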
